A study of Mus musculus with 5 samples.

Results

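The 10 genes Vcl, Zyx, Tln1, Flna, Pxn, Fhl2, Actn1, Actn4, Tagln2 and Tns4 encode proteins of focal adhesions and actin crosslinkers. They were chosen by symbol, and each was found in all 5 plates, as 10 of 18384 genes listed. Their levels were compared between organoids kept in BME, a basement membrane extract, and in Collagen I, and between basal and non-basal wells. A basal well held at least 5 counts of the basal keratins Krt5, Krt14 and Krt17 together per 10000 counts, and a non-basal well under 2. In Collagen I, 9 of the 10 genes were higher over all wells, beside 15.5% of the 11839 genes tested. Tagln2 was higher there in basal wells and not in non-basal wells, whereas Tns4 had its larger increase in non-basal wells.

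Focal adhesions are the sites where integrins, bound to the matrix outside, are tied to actin bundles inside the cell. Talin (Tln1) binds the integrin tail and opens under force, and vinculin (Vcl) then joins it and links it to actin. Paxillin (Pxn), zyxin (Zyx) and tensins are adaptors that gather further proteins there, and filamin A (Flna) and the α-actinins crosslink the actin filaments. In mammary epithelium the basal layer rests on the basement membrane and carries much of this machinery.

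The samples were tumor organoids of the mouse model MMTV-PyMT, in which a mammary promoter drives the polyoma middle T antigen. All had been grown in BME in a medium with FGF2, B27 and N-acetylcysteine, were freed with Dispase II, and were then embedded for 5 days in BME (labelled no invasion) or in Collagen I (labelled invasion). Live single cells were sorted into plates of 384 wells, and 3 BME plates (replicates 1, 2 and 3) and 2 Collagen I plates (replicates 1 and 3) were analysed. No source says that plates came from separate cultures, so p-values measure the spread between plates only.

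Of 1920 wells, 1500 passed the study's limits on counts, genes and mt- share, 944 in BME (302 basal, 537 non-basal) and 556 in Collagen I (226 and 277). The BME plates held 9077590 to 10911740 counts, and the Collagen I plates 1631981 and 1091410, so that the precision was lower in Collagen I. In a well under 2000 counts, a single keratin count met the limit for basal. Such wells were 11.5%, 19.3% and 13.0% of the basal wells in BME and 21.6% and 41.3% in Collagen I. They were 11.6%, 24.7% and 19.9% of the non-basal wells in BME and 10.5% and 32.6% in Collagen I. A basal cell in which no keratin was counted was placed among the non-basal wells. The classes were not set anew at equal depth, and whether a class holds the same cells in both matrices was not tested. The 3 BME plates share a sequencing flow cell and each Collagen I plate has its own, so matrix and sequencing run cannot be told apart. The basal marker Trp63, which the keratin limit did not use, differed between the classes and had 164 to 201 CPM (counts scaled to the same total in each sum of wells) in basal and 16.3 to 22.5 CPM in non-basal wells of BME. In Collagen I it had 79.3 and 63.9 CPM in basal and 13.0 and 16.9 CPM in non-basal wells. It was lower in basal wells there than in BME (log2 -1.32, SE 0.22, edgeR adjusted p = 0.000167). Of the 6 basal markers, which include the keratins of the class limit, 3 were higher and 1 lower in these wells by edgeR. Their median log2 difference was 0.49, and in basal wells they summed to 2555 to 3437 CPM in BME and to 3259 and 3854 CPM in Collagen I. The luminal marker sum went against the labels of the classes in Collagen I, with 3758 and 3498 CPM in basal and 3200 and 3183 CPM in non-basal wells, whereas in BME non-basal wells had the higher sum (2472 to 2831 CPM). Gene by gene the 8 luminal markers were split in Collagen I. In basal wells 2 were higher and 1 lower by edgeR, 5 did not pass, and the median log2 difference was -0.08. Other marker sums moved with the matrix. In basal wells the 8 immediate early genes, which respond to stress, summed to 660 to 880 CPM in BME and to 2156 and 3075 CPM in Collagen I, the 8 luminal markers to 1169 to 1278 and to 3758 and 3498 CPM, and the 14 mitotic genes to 1178 to 1962 and to 550 and 381 CPM. The 8 fibroblast markers, none at 0, summed to 29.6 to 36.3 CPM over all wells in BME, 109 CPM in Collagen I replicate 1 and 397 CPM in Collagen I replicate 3. Without the 279 wells that held at least 2 counts of 7 fibroblast genes, a choice made after seeing the data, 9 members were called over all wells, 8 in basal and 8 in non-basal wells, among 3472, 1726 and 2719 genes called. This limit was not scaled to depth, and deep wells met it more easily. It left out 75, 64 and 58 wells in BME and 33 and 49 in Collagen I. It therefore cannot show what part the fibroblast counts of Collagen I had in the results. The part of the immediate early, luminal and mitotic counts in the results was not tested, other than by leaving out mitotic wells. Of the 6 contractile myoepithelial markers, Cnn1 was at 0 in basal wells of every plate, and the sum was 19.4, 23.9 and 29.4 CPM in BME and 42.1 and 69.2 CPM in Collagen I, so that it moved with the matrix as well. Its part in the results was not tested.

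The first question was whether the adhesion genes differ between the matrices. The values are CPM of the counts summed over the wells of a plate, and the differences are log2 differences from edgeR's quasi-likelihood test with Benjamini-Hochberg adjustment over all genes. Over all wells, 9 members were higher in Collagen I (background 15.5% of 11839 genes) and 0 lower (background 16.3%; 0 also at an unadjusted p under 0.05, by edgeR or DESeq2). In basal wells 8 were higher (background 10.8% of 10296 genes) and 0 lower (8.31%), and in non-basal wells 8 higher (14.1% of 11076 genes) and 0 lower (13.9%), with 0 lower at an unadjusted p under 0.05 by either tool. The median log2 difference of the 10 members was 0.95 in basal wells and 0.89 in non-basal wells, beside -0.03 over all genes in each. In a sum of wells, more cells that express a gene and more RNA per cell cannot be told apart.

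Of the integrin-proximal adaptors, Tln1 (chromosome 4, 43531519 to 43562691, minus strand) had 152, 145 and 124 CPM in the basal wells of BME replicates 1 to 3, and 270 and 242 CPM in Collagen I replicates 1 and 3. In non-basal wells it had 109, 70.6 and 74.8 CPM in BME and 156 and 150 CPM in Collagen I. The matrices did not overlap in either class. By edgeR the log2 difference was 0.91 (SE 0.18, adjusted p = 0.00087) in basal and 0.87 (SE 0.20, adjusted p = 0.00461) in non-basal wells. The call in non-basal wells was lost without Collagen I replicate 1 (log2 0.86, edgeR adjusted p = 0.0832) and without replicate 3 (0.85, adjusted p = 0.054). Vcl (chromosome 14, 20929398 to 21033676, plus strand) had 112, 162 and 127 CPM in basal wells of BME and 295 and 229 CPM in those of Collagen I. Its non-basal values were 59.6, 62.6 and 63.0 CPM in BME and 120 and 113 CPM in Collagen I, so that non-basal wells in Collagen I reached the level of basal wells of BME replicate 1. By edgeR Vcl was 2.01-fold higher in basal wells (log2 1.01, SE 0.19, adjusted p = 0.000583) and 1.92-fold higher in non-basal wells (0.94, SE 0.17, adjusted p = 0.000579). Without Collagen I replicate 1 the basal difference of Vcl was 0.82 on the log2 scale (edgeR adjusted p = 0.0523).

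Zyx, a LIM protein of adhesions and stress fibers (chromosome 6, 42349630 to 42360213, plus strand), had 121, 95.9 and 102 CPM in basal wells of BME and 218 and 226 CPM in Collagen I. In non-basal wells it had 52.4, 33.1 and 38.3 CPM in BME and 81.3 and 65.8 CPM in Collagen I. The matrices did not overlap in either class. The log2 difference was 1.10 (SE 0.19, edgeR adjusted p = 0.000205) in basal and 0.86 (SE 0.24, adjusted p = 0.0124) in non-basal wells, where it was not called without Collagen I replicate 1 (0.70, adjusted p = 0.227) or replicate 3 (0.95, adjusted p = 0.0532). Pxn (chromosome 5, 115506676 to 115555987, plus strand) had 194, 171 and 126 CPM in basal wells of BME and 211 and 253 CPM in Collagen I, a log2 difference of 0.55 (SE 0.21, edgeR adjusted p = 0.0632). That difference did not pass the test, and its 95% interval ran from 1.09-fold to 1.97-fold. It passed in 5 of 18 settings. Among these were the fit without BME replicate 1, the highest BME plate (0.70, edgeR adjusted p = 0.00537), and wells thinned to 2000 counts (0.77, adjusted p = 0.0435). The others were no limit on mt- counts (0.61, 0.039), no 5% deepest wells (0.60, 0.043) and a replicate block (0.59, 0.0392). In non-basal wells Pxn had 108, 89.4 and 86.8 CPM in BME and 183 and 169 CPM in Collagen I, and the log2 difference of 0.91 was called (SE 0.16, edgeR adjusted p = 0.000657), but not in wells thinned to 2000 counts (0.57, adjusted p = 0.114).

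Tns4 (chromosome 11, 99065678 to 99089306, minus strand) encodes a short tensin that binds integrin tails without the actin-binding part of other tensins. In non-basal wells it had 6.05, 13.1 and 10.2 CPM in BME, from 33, 60 and 56 counts, and 82.5 and 69.6 CPM in Collagen I, from 70 and 37 counts. The increase was 8.00-fold (log2 3.00, SE 0.28, edgeR adjusted p = 1.2e-06), the highest of the 10 members in these wells. In basal wells Tns4 had 76.0, 79.9 and 84.7 CPM in BME and 136 and 104 CPM in Collagen I. This log2 difference of 0.62 (SE 0.21, edgeR adjusted p = 0.0399) was called in 6 of 18 settings. It was not called without BME replicate 2 (0.60, edgeR adjusted p = 0.0667), BME replicate 3 (0.69, adjusted p = 0.0616), Collagen I replicate 1 (0.42, adjusted p = 0.373) or Collagen I replicate 3 (0.76, adjusted p = 0.0862), nor with DESeq2 (0.62, adjusted p = 0.102). It was also lost in thinned wells (0.35, edgeR adjusted p = 0.579), with stricter class limits (0.42, 0.229), without the 5% deepest wells (0.43, 0.192), without mitotic wells (0.48, 0.183), without the filter on low counts (0.53, 0.109) and with library size only (0.59, 0.0556). Non-basal wells in Collagen I (69.6 and 82.5 CPM) and basal wells in BME (76.0 to 84.7 CPM) overlapped in Tns4 level. In Collagen I replicate 1, 24 of the 40 non-basal wells with Tns4 had no count of the 3 basal keratins (60.0%, beside 84.95% of the other non-basal wells), and in replicate 3 it was 24 of 26 (92.31%, beside 93.22%). In BME it was 2 of 28, 2 of 31 and 8 of 35 wells, in plates several times deeper, where at least 38.27% of the other non-basal wells of each plate had none. The class limit leaves no room for a keratin count in shallow non-basal wells, so it partly set these shares. Wells with Tns4 were also deeper than the others in each plate. Their median counts were 34992, 46890 and 52326 in BME, beside 22945, 17545 and 23082. In Collagen I they were 6531 and 4361, beside 5426 and 2597. The shares are therefore no test of keratin in wells with Tns4.

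**Figure D1:**
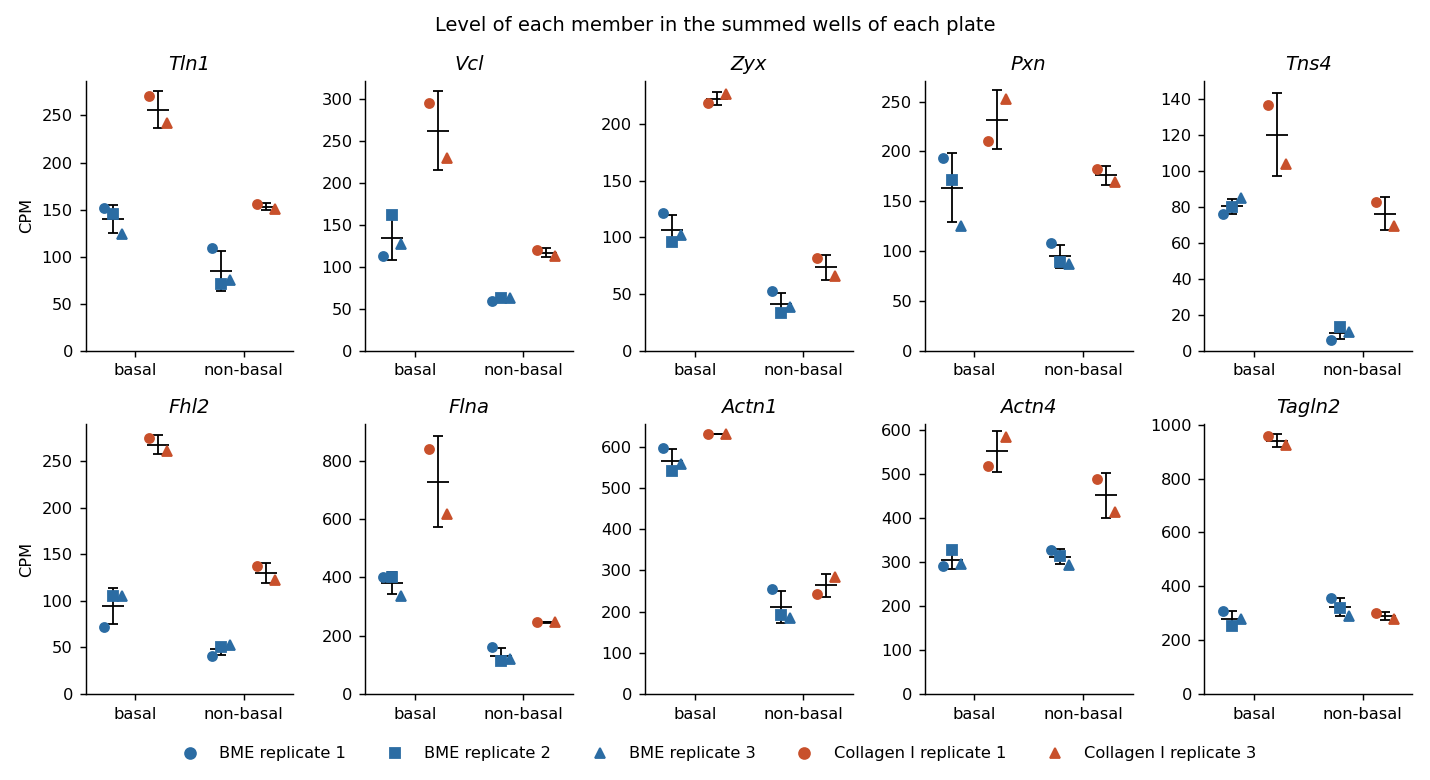
CPM (vertical axis, from 0) of each member in the summed basal and non-basal wells, with 1 point per plate and a black mark for the mean ± SD of 3 BME (blue) and 2 Collagen I (orange) plates. Both Collagen I plates lie above the BME plates in basal wells for all 10 members (background 23.5% of genes) and in non-basal wells for 8 (26.6%), where Tagln2 and Actn1 overlap.

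Fhl2 (chromosome 1, 43123074 to 43196984, minus strand) is a LIM-only protein that moves between adhesions and the nucleus, where it acts as a cofactor of transcription. In basal wells it had 72.1, 105 and 106 CPM in BME and 275 and 261 CPM in Collagen I. Its non-basal values were 41.1, 50.6 and 52.5 CPM in BME and 138 and 122 CPM in Collagen I, so that non-basal wells of Collagen I lay above basal wells of BME. By edgeR the increase was 2.92-fold in basal (log2 1.54, SE 0.19, adjusted p = 4.82e-06) and 2.76-fold in non-basal wells (1.46, SE 0.18, adjusted p = 1.74e-05). Both calls held under every alternative run.

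Among the crosslinkers, Flna (chromosome X, 74223461 to 74249820, minus strand) had 400, 402 and 335 CPM in basal wells of BME and 840 and 618 CPM in Collagen I. In non-basal wells it had 162, 113 and 119 CPM in BME and 245 and 246 CPM in Collagen I. The matrices were apart in both classes, with edgeR log2 differences of 0.98 (SE 0.18, adjusted p = 0.000373) and 0.92 (SE 0.18, adjusted p = 0.00121). Of the 2 non-muscle α-actinins, Actn4 passed the test in both classes and Actn1 in neither. Actn1 (chromosome 12, 80167547 to 80260371, minus strand) had 599, 541 and 560 CPM in basal wells of BME and 632 and 631 CPM in Collagen I, and in non-basal wells 255, 193 and 184 CPM in BME and 243 and 284 CPM in Collagen I. Its log2 differences of 0.20 (SE 0.17, edgeR adjusted p = 0.473) and 0.34 (SE 0.18, adjusted p = 0.173) did not pass the test, and the 95% intervals ran from 0.892 to 1.47-fold and from 0.973 to 1.64-fold. Without BME replicate 1 the non-basal difference of Actn1 was called (0.51, edgeR adjusted p = 0.00533). Actn4 (chromosome 7, 28893248 to 28962340, minus strand) had 291, 328 and 295 CPM in basal wells of BME and 518 and 583 CPM in Collagen I, a log2 difference of 0.90 (SE 0.17, edgeR adjusted p = 0.000616). In non-basal wells Actn4 had 327, 313 and 293 CPM in BME and 487 and 414 CPM in Collagen I (log2 0.56, SE 0.14, edgeR adjusted p = 0.00925), a call that was lost without BME replicate 3 (0.52, adjusted p = 0.0513) or Collagen I replicate 1 (0.45, adjusted p = 0.15) and in thinned wells (0.48, adjusted p = 0.071). The difference between the responses of Actn1 and Actn4 was not tested.

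Tagln2, transgelin 2, a calponin family protein that binds and stabilizes actin (chromosome 1, 172500047 to 172507380, plus strand), had 308, 252 and 279 CPM in basal wells of BME and 959 and 924 CPM in Collagen I. The increase of 3.46-fold was the highest of the members in basal wells (log2 1.79, SE 0.17, edgeR adjusted p = 1.1e-07), and it was called under every alternative run. In non-basal wells the plates overlapped, with 357, 321 and 289 CPM in BME and 301 and 278 CPM in Collagen I. The log2 difference of -0.13 there (SE 0.15, edgeR adjusted p = 0.551) had a 95% interval from 0.727 to 1.14-fold.

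**Figure D2:**
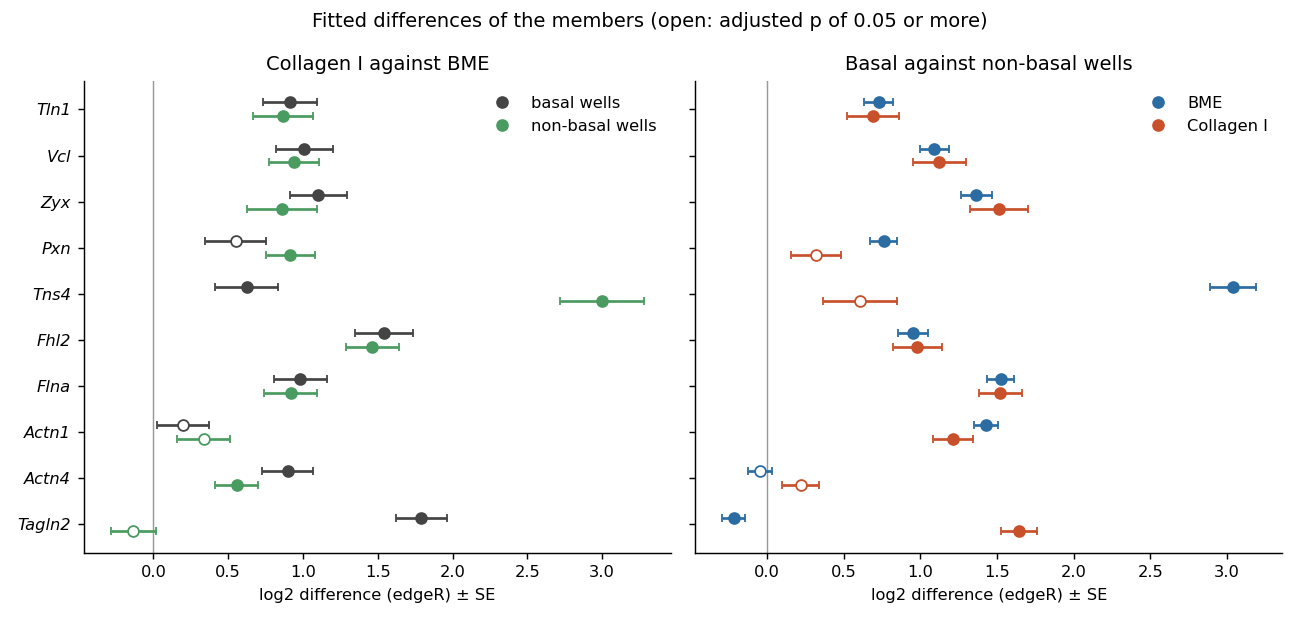
Fitted log2 differences (horizontal axis) with bars of ± 1 SE for each member, for Collagen I against BME (left) and for basal against non-basal wells (right); filled points passed the test. Tns4 is at 3.00 in non-basal wells and Tagln2 at 1.79 in basal wells on the left, and on the right Tns4 is at 3.04 in BME and 0.61 in Collagen I.

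The second question was in which cells the members are expressed. All 5 plates entered 1 fit of basal and non-basal sums, with the plate as a block. In BME, 8 members were higher in basal wells (background 18.0% of 10862 genes) and Tagln2 was lower (background 17.3%). In Collagen I, 7 were higher (background 4.35%) and 0 lower (background 3.32%; 0 also at an unadjusted p under 0.05 and with DESeq2). Flna was higher in basal wells of each of the 5 plates, by 1.52 on the log2 scale in both BME (SE 0.09, edgeR adjusted p = 3.57e-15) and Collagen I (SE 0.14, adjusted p = 1.01e-09). For Actn1 the log2 differences were 1.43 (SE 0.08, edgeR adjusted p = 8.17e-16) and 1.21 (SE 0.13, adjusted p = 2.22e-08). Zyx was 2.58-fold and 2.86-fold higher in basal wells of BME and Collagen I, Vcl 2.13-fold and 2.18-fold, Fhl2 1.94-fold and 1.97-fold, and Tln1 1.66-fold and 1.61-fold, all called by edgeR. The Tln1 call in Collagen I was lost without either Collagen I plate (adjusted p = 0.282 without replicate 1 and 0.0681 without replicate 3, edgeR), and that of Vcl without replicate 1 (0.0627). Without the plate as a block the Tln1 call in Collagen I was lost as well (edgeR adjusted p = 0.114), and in thinned wells that in BME (log2 0.48, adjusted p = 0.24).

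Pxn and Tns4 passed the test between the classes in BME, with log2 differences of 0.76 (SE 0.09, edgeR adjusted p = 3.32e-08) and 3.04 (SE 0.15, adjusted p = 4.82e-17). The Pxn call was lost in thinned wells (0.42, edgeR adjusted p = 0.28). In Collagen I they did not pass, at 0.32 (SE 0.16, edgeR adjusted p = 0.283) and 0.61 (SE 0.24, adjusted p = 0.133). Tns4 in Collagen I was called without BME replicate 3 (0.66, edgeR adjusted p = 0.0492). Actn4 did not pass in BME (-0.04, SE 0.08, 95% interval 0.869 to 1.08-fold) or in Collagen I (0.22, SE 0.12, 95% interval 0.983 to 1.38-fold). The lower Tagln2 in basal wells of BME was small, at -0.22 on the log2 scale (SE 0.08, edgeR adjusted p = 0.0266), and was not called without BME replicate 1 (-0.22, adjusted p = 0.115), BME replicate 2 (-0.18, adjusted p = 0.183) or the plate block (-0.22, adjusted p = 0.272). It was also not called with DESeq2 (-0.25, adjusted p = 0.0604) or without the wells with fibroblast counts (-0.14, edgeR adjusted p = 0.218).

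The test of the difference of the class effect between the matrices passed for Tagln2 and Tns4, in opposite directions (background 1.45% higher and 2.84% lower of 10862 genes). The effect of the class on Tagln2 was larger in Collagen I by 1.86 on the log2 scale (SE 0.14, edgeR adjusted p = 1.59e-10), where basal wells held 3.12 times as much as non-basal wells. For Tns4 it was smaller in Collagen I by a log2 difference of -2.43 (SE 0.29, edgeR adjusted p = 7.21e-07), since the non-basal level was higher there. The basal marker sum of non-basal wells was higher there too, with 148 to 184 CPM in BME and 338 and 263 CPM in Collagen I. What part basal cells without a keratin count had in the Tns4 level of non-basal wells was not tested. The other 8 members had differences from -0.44 (Pxn, 95% interval 0.567 to 0.96-fold, edgeR adjusted p = 0.222) to 0.27 (Actn4), none called.

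Wells between the class limits, 105 in BME and 53 in Collagen I, gave a further view of the keratin range. Zyx, Pxn and Tns4 increased in order from non-basal over intermediate to basal wells in all 5 plates, Vcl, Flna, Fhl2 and Actn1 in 4, Tln1 in 2, Actn4 in 1 and Tagln2 in 0. In Collagen I, Tagln2 had 281 and 277 CPM in the intermediate wells, near its non-basal level. Tns4 had 31.3, 22.4 and 34.0 CPM in the intermediate wells of BME, between the classes, and 84.1 and 75.5 CPM in Collagen I. These are sums of 23 to 38 wells a plate, with no test. At the median depth of kept wells in Collagen I, 5106 and 2749 counts, few keratin counts decide the range of a well. Its range there thus depends on its depth as well and is no precise keratin level.

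**Figure D3:**
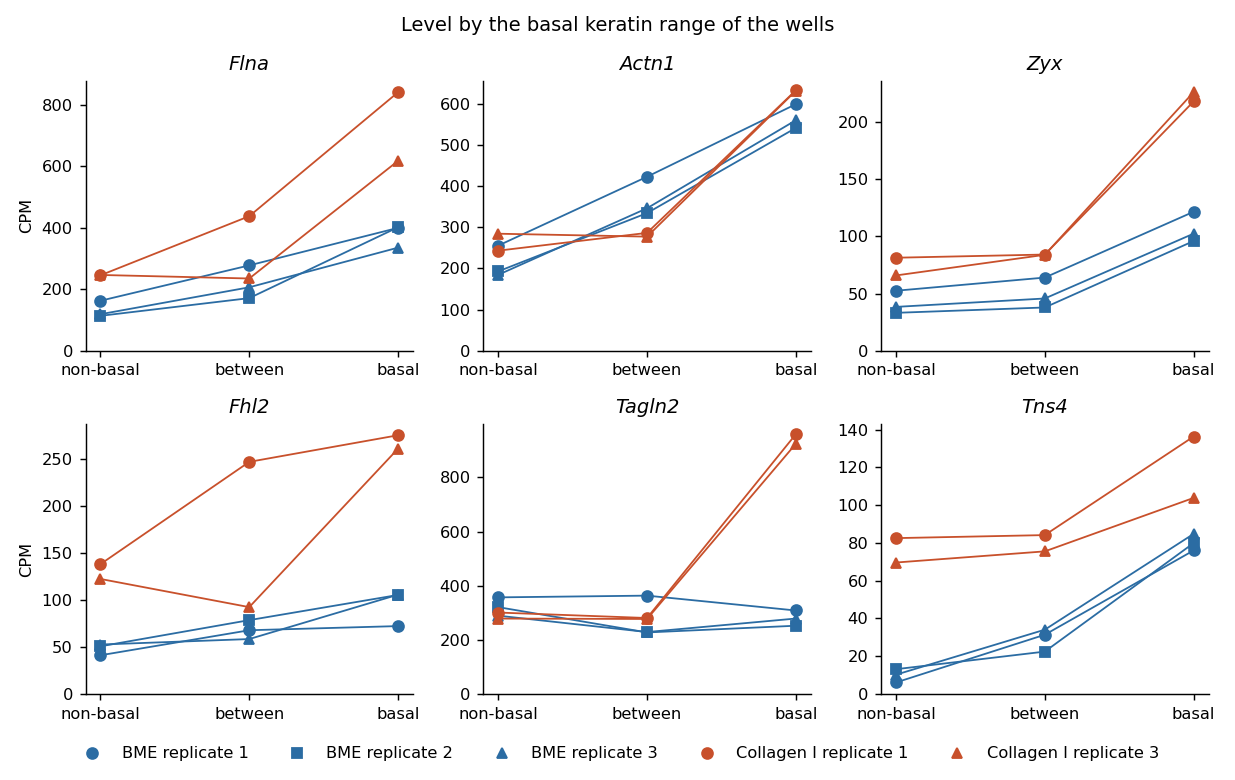
CPM (vertical axis, from 0) of 6 members in the wells of each plate by their basal keratin range, non-basal (under 2 per 10000 counts), between, and basal (5 or more); lines join the 3 ranges of a plate. For Tagln2 the basal wells of both Collagen I plates, at 960 and 925 CPM before the sums were rounded, stand apart from the other ranges and plates, and for Tns4 the BME lines start at 6.05 to 13.1 CPM.

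The share of wells with a member was compared after each well was thinned to 2000 counts, since Collagen I wells were shallower. Thinning left out the shallower wells, 45 of 302 basal wells in BME and 76 of 226 in Collagen I, and 99 of 537 and 61 of 277 non-basal wells. In basal wells, 8 members were found in a larger share of wells in both Collagen I plates than in any BME plate (background 19.1% of 5513 genes), all but Actn1 and Tns4. In non-basal wells it was 8 as well (background 22.0% of 5435 genes), all but Actn1 and Tagln2. A test over plates with 3 against 2 cannot give a two-sided exact permutation p under 0.1, which is 0.154 after adjustment over the 20 comparisons. Tagln2 was found in 37.5% ± 5.56 (SD, n = 3) of basal wells in BME and 68.9% ± 4.97 (SD, n = 2) in Collagen I (exact permutation p = 0.1). Fhl2 was found in 17.1% ± 3.77 and 43.3% ± 0.19 of basal wells (exact permutation p = 0.1), and in 8.83% ± 0.771 and 23.9% ± 3.11 of non-basal wells. Tns4 was found in 2 of 168, 1 of 125 and 3 of 145 non-basal wells in BME and in 18 of 119 and 14 of 97 in Collagen I, 1.35% ± 0.65 and 14.8% ± 0.49 (exact permutation p = 0.1). In basal wells its shares overlapped, with 10.6%, 13.0% and 13.8% in BME and 17.4% and 13.6% in Collagen I. Without thinning, where median depth was 16930 to 26524 counts in basal wells of BME and 4124 and 2579 in those of Collagen I, 0 members had the larger share in both Collagen I plates (background 0.374% of genes in basal and 0.892% in non-basal wells). There 9 members in basal wells (background 95.7%) and 8 in non-basal wells (93.3%) had the smaller share. No class of cells that should lack these genes was at hand, so the share of wells that free RNA gives was not measured.

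**Figure D4:**
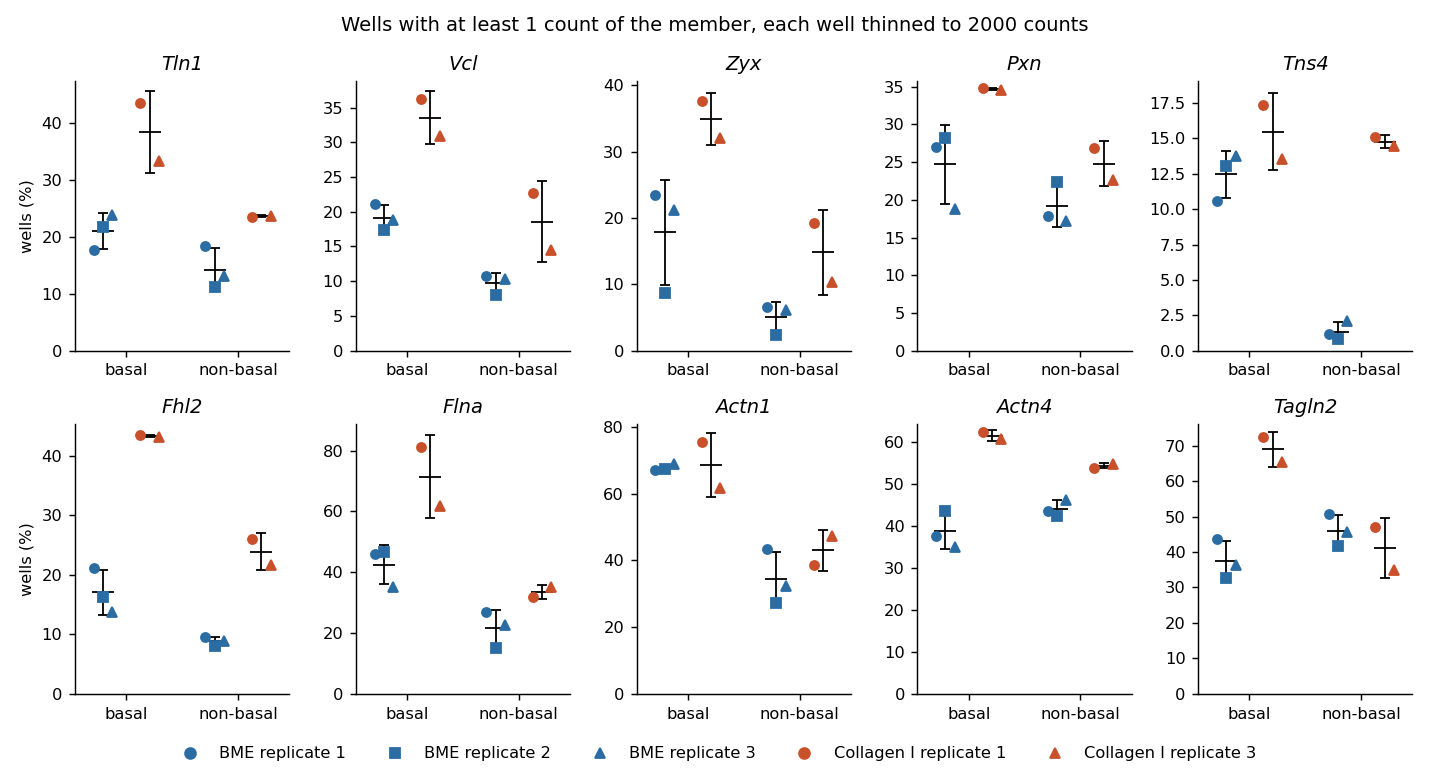
Share of wells with at least 1 count of each member (vertical axis, percent, from 0) after thinning to 2000 counts, per plate, with the mean ± SD of 3 BME and 2 Collagen I plates in black. In non-basal wells Tns4 is at 0.8% to 2.07% in BME and 14.4% and 15.1% in Collagen I.

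Single wells held several members at once. A thinned basal well had a median of 3 of the 10 members in each BME plate and of 5 and 4 in the Collagen I plates, and a non-basal well a median of 2 in each BME plate and of 3 in each Collagen I plate. Basal wells without any member were 5 of 85, 2 of 92 and 3 of 80 in BME. In Collagen I they were 0 of 69 and 0 of 81, which allows shares of up to 4.35% and 3.70%. Within plates and classes, the correlation between 2 members over 657 BME wells of 5000 counts ranged from -0.12 to 0.18 over 45 pairs, with a median of 0.05. These wells share a library and the counts are sparse, so the values are given as a description. The genes whose counts ran most like the summed members were the glycolytic enzyme Pkm (r = 0.37), β-actin Actb (0.33), the elongation factor Eef2 (0.29), γ-actin Actg1 (0.28), App (0.28), Gnas (0.25), S100a11 (0.24), Bsg (0.23), the LIM protein Csrp1 (0.23) and Ctsd (0.23), beside a median of 0.05 over 653 genes. Of the members, Flna (0.20), Actn1 (0.15), Actn4 (0.12) and Tagln2 (0.06) had enough counts to be ranked, at 20, 64, 114 and 296. Their means were 1.05 to 1.68 counts per well, beside 11.5 for Pkm, 10.6 for Actb, 8.89 for Eef2 and 24.0 for Actg1. The part of the count level in r was not tested.

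The promoters of the members were read for 3 motifs, on both strands: GGAATG, bound by TEAD factors, TGANTCA, bound by AP-1, and the CArG box, bound by SRF. RefSeq promoters (GRCm38.p6, 250 bases before to 50 after the start) matched 8 of 10 members with 9 promoters, and Pxn and Tns4 were not matched. GGAATG was found in 4 of 9 (Tagln2, Actn4, Vcl, Flna; 14.7% of all 32851 promoters), TGANTCA in 2 of 9 (Zyx, Actn4; 7.81% of all) and the CArG box in 3 of 9 (Vcl and both promoters of Fhl2; 1.63% of all). The promoters of Vcl and Fhl2, which hold the CArG box, and of Tagln2, which holds GGAATG more than once, are shown 5′ to 3′ on the strand of the gene, with the motifs in capitals.
Vcl, chr14:20929148-20929447, plus strand: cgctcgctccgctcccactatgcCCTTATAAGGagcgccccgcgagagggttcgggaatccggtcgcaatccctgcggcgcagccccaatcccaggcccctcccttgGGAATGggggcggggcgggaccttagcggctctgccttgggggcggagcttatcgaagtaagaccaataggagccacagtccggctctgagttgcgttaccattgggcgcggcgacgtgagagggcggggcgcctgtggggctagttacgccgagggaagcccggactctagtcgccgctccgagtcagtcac
Fhl2, chr1:43196712-43197011, minus strand: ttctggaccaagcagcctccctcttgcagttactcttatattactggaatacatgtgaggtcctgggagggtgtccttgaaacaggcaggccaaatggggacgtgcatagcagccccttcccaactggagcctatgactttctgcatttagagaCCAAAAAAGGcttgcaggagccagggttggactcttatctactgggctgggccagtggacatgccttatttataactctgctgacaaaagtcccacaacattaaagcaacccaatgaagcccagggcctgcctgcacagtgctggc
Fhl2, chr1:43163912-43164211, minus strand: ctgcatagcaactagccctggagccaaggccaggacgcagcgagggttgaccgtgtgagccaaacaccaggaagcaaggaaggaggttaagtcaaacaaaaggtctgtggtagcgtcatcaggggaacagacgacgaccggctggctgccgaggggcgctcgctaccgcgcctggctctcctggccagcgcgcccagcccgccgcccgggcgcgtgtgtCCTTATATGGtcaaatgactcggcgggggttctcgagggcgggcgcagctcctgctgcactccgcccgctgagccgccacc
Tagln2, chr1:172499996-172500295, plus strand: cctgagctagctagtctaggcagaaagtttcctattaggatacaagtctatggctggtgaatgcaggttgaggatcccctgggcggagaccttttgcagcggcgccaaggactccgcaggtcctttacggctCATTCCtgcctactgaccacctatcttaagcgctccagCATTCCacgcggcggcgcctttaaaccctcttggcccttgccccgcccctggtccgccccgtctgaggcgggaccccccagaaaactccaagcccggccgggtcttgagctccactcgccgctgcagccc
In Tagln2 the motif lies on the other strand (CATTCC), from 118 to 113 and from 80 to 75 bases before the start. The CArG box of Vcl lies from 227 to 218 bases before the start, and those of Fhl2 from 96 to 87 and from 31 to 22. A match describes these letters only, and binding was not measured.

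Other genes of adhesions and actin were taken from 4 lists of 83 genes in all, of which 64 could be tested in basal wells. There 28 were higher in Collagen I and 0 lower by edgeR (background 10.8% and 8.31%; 1 lower at an unadjusted p under 0.05), and DESeq2 called 27 higher and 0 lower. In non-basal wells 25 of 67 were higher and 2 lower by edgeR (background 14.1% and 13.9%; 6 lower at an unadjusted p under 0.05), and DESeq2 called 25 higher and 0 lower. The 2 lower genes were the adaptors Tns3, a tensin (log2 -0.68, SE 0.23, edgeR adjusted p = 0.0328), and Rsu1 (-0.69, SE 0.23, adjusted p = 0.0368). They were called in 10 and 13 of 18 settings. The median log2 differences of the lists together, 0.55 in basal and 0.39 in non-basal wells, stood beside -0.03 over all genes. Of the 16 adhesion adaptors tested 6 were higher in basal wells. Among them kindlin 2 (Fermt2), which activates integrins with talin, was higher by 1.36 on the log2 scale (SE 0.26, edgeR adjusted p = 0.000514). Of the LIM proteins 9 of 17 tested were higher in basal wells and 10 of 18 in non-basal wells. Fhl1, the relative of Fhl2, had 8.54 ± 3.64 CPM (SD, n = 3) in non-basal wells of BME and 149 and 164 CPM in Collagen I (log2 4.21, SE 0.27, edgeR adjusted p = 2e-08), and Fblim1, which links filamin to kindlin, was higher there by 2.21 (SE 0.21, adjusted p = 1.2e-06).

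Of the actin genes and actin binders 11 of 16 tested were higher in basal wells in Collagen I and 8 of 18 in non-basal wells. Drebrin (Dbn1) was higher by 2.31 in basal (SE 0.28, edgeR adjusted p = 3.01e-06) and 2.32 in non-basal wells (SE 0.30, adjusted p = 3.49e-05). Caldesmon (Cald1), which binds actin and tropomyosin, was higher by 1.54 in non-basal wells (SE 0.14, edgeR adjusted p = 9.36e-07), and Actb had 2474, 3225 and 2838 CPM in basal wells of BME and 7508 and 5377 CPM in Collagen I. Of the 15 adhesion signalling genes tested, such as kinases and GTPase regulators, 2 were higher in basal wells and 1 in non-basal wells, shares near or under the background of 10.8% and 14.1%.

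Between the classes, 33 of 66 tested genes of these lists were higher in basal wells of BME and 5 lower (background 18.0% and 17.3%), and 25 were higher and 1 lower in Collagen I (4.35% and 3.32%). The LIM proteins Ajuba (log2 2.15, SE 0.11), Lima1 (1.98, SE 0.09) and Csrp1 (1.84, SE 0.10) and the actin binders Cnn2 (1.99, SE 0.11) and Fscn1 (2.02, SE 0.15) were higher in basal wells of BME, all called by edgeR. All 5 were called in Collagen I as well: Lima1 (2.42, SE 0.19), Csrp1 (1.45, SE 0.14), Cnn2 (1.79, SE 0.18), Ajuba (1.68, SE 0.29) and Fscn1 (1.60, SE 0.36). Without Collagen I replicate 1 the calls of Ajuba (1.46, edgeR adjusted p = 0.0637) and Fscn1 (1.54, adjusted p = 0.134) there were lost, and without replicate 3 that of Fscn1 (1.64, adjusted p = 0.0717). In thinned wells both were lost as well (Ajuba 1.37, edgeR adjusted p = 0.0724, Fscn1 1.54, 0.123). Without the 5% deepest wells Fscn1 was not called either (1.26, edgeR adjusted p = 0.0508). Fhl1 went the other way, with log2 differences of -2.77 in BME (SE 0.40, from 1, 5 and 3 counts in basal wells) and -1.90 in Collagen I (SE 0.28), both called by edgeR. The Fhl1 call in BME was lost in thinned wells (-1.97, edgeR adjusted p = 0.298). Sorbs2 was lower in basal wells of BME (-1.21, SE 0.11, edgeR adjusted p = 1.39e-10).

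Several members overlap other genes in GENCODE vM21 on GRCm38, among them Vcl with Ap3m1, Zyx with Epha1, Tln1 with Creb3 and Actn4 with Capn12, each on the opposite strand. On the same strand, Pxn overlaps Gm13840, Actn4 Gm44699 and Actn1 Gm47765, and strand cannot tell reads of these pairs apart. Whether the counting used strand is not stated, so reads in the shared stretches of either kind cannot be assigned to one gene with certainty.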

How the data were processed

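Cells of 3 BME and 2 Collagen I plates were processed by SORT-seq (CEL-Seq2 chemistry), per the labels, and mapped with BWA to mm10. The deposited values are expected counts per gene and well, which the authors estimated from distinct UMIs by a saturation correction, and they are not normalized between wells or plates. The labels give UMIs of 4 bases. All 5 plates use the same well numbers, so shared numbers mark no shared cells. The members and gene lists were chosen with earlier results of these data known.

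Wells with more than 500 counts without ERCC spike-ins, fewer than 8000 genes and under 10% of counts from mt- genes were kept, and 88 ERCC transcripts were left out. The study then also removed a cluster of low quality, a step not repeated here. No doublet caller was run, and the 5% deepest wells were left out as an alternative. Expected counts were summed per plate and class, rounded, and tested with edgeR 4.0.16 (TMM, filterByExpr, quasi-likelihood test, Benjamini-Hochberg, adjusted p under 0.05) in R 4.3.3. The SE was taken as the absolute log2 difference over the square root of F, and 95% intervals use the t distribution. Intervals of shares and zero limits (3 counts) cover counting error only. On simulated data with 200 changed genes, the shares found of 2-fold and 4-fold changes were 30% and 76% in basal wells (5 false calls), 38% and 78% in non-basal wells (7), 47% and 88% over all wells (7), and 83% and 95% between classes in BME (10). Thinning used seed 1, in NumPy 2.4.6.

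The text names all members, genes of the 4 lists among the 4 with the largest called change per list and direction (others stand only in the tables), Trp63 and Actb by the same lists, and the 10 genes most like the members. Likeness is the Pearson correlation of log2(count + 1) with the summed members over BME wells thinned to 5000 counts, after removal of plate and class means. Positions are from GENCODE vM21. Leaving out wells with fibroblast counts was chosen after seeing the data. Whether counting used strand is not given in the sources used here. Other alternatives were DESeq2 1.42.0, other scalings, filters, thinning, class limits, blocks and leaving out each plate. A result on a withheld item is not reported here.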

Additional observations from a re-analysis of the deposited data

Results flagged for a closer look

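For 7 genes, the difference between basal and non-basal wells differed itself between Collagen I and BME by edgeR's quasi-likelihood test with the plate as a block. Of 10 members tested 1 was higher and 1 lower, and of 66 other adhesion and actin genes 3 were higher and 2 lower. The background was 1.45% higher and 2.84% lower of 10862 genes. Among the members the genes called were Tagln2 (Collagen I minus BME on the log2 scale, 1.86, SE 0.14, adjusted p = 1.59e-10) and Tns4 (-2.43, SE 0.29, adjusted p = 7.21e-07), and both were called under every alternative. Among the other adhesion and actin genes they were Sorbs2 (1.39, SE 0.28, adjusted p = 0.002), Cnn3 (0.62, SE 0.15, adjusted p = 0.0115), Pdlim5 (0.61, SE 0.18, adjusted p = 0.0474), Pdlim1 (-1.08, SE 0.27, adjusted p = 0.0145) and Fblim1 (-1.30, SE 0.27, adjusted p = 0.0027). Each of these other 5 was lost without Collagen I replicate 1, with log2 differences of 1.34 for Sorbs2 (edgeR adjusted p = 0.124), 0.38 for Cnn3 (0.443), 0.46 for Pdlim5 (0.435), -1.19 for Pdlim1 (0.157) and -1.35 for Fblim1 (0.0935). Without Collagen I replicate 3, the calls of Pdlim5 (0.71), Pdlim1 (-1.02) and Fblim1 (-1.28) were lost too, and without BME replicate 1 those of Cnn3 (0.58), Pdlim5 (0.52) and Pdlim1 (-0.95). Without the plate as a block, the calls of Cnn3 (edgeR adjusted p = 0.396), Pdlim5 (0.258) and Pdlim1 (0.126) were lost, and DESeq2 did not call Pdlim5 (adjusted p = 0.103) or Pdlim1 (0.0686). Without mitotic wells none of these other 5 was called (edgeR adjusted p from 0.0607 to 0.562). Sorbs2 had 41.6, 42.1 and 38.8 CPM in basal wells of BME and 86.8 and 61.2 CPM in Collagen I, and 112, 87.9 and 83.2 CPM in non-basal wells of BME and 73.1 and 52.7 CPM in Collagen I. Fblim1 had 49.9, 69.5 and 61.6 CPM in basal wells of BME and 124 and 106 CPM in Collagen I, and 25.5, 18.1 and 23.4 CPM in non-basal wells of BME and 108 and 95.9 CPM in Collagen I. The cause of these differences was not tested.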

How the results depend on the processing

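The counts of members called kept within 1.5 times under 1 change of setting at a time, apart from 5 in non-basal wells without Collagen I replicate 1. Leaving out 1 plate gave 9 to 10 members called over all wells, 6 to 9 in basal wells, 5 to 9 in non-basal wells, 8 to 9 between classes in BME, 5 to 8 in Collagen I and 2 to 2 for the difference of the class effect. Of 1070 single values of members, 989 kept direction and side of the threshold, 35 lost and 8 gained the call, and 38 changed sign. The correlation of deviations between plates of the same replicate number was -0.01 for number 1 and 0.01 for number 3. With 2 Collagen I plates, the values of a BME plate mirror each other, so they cannot show whether replicate numbers pair plates. With replicate numbers as a block, Pxn in basal wells was called (0.59, edgeR adjusted p = 0.0392) and Tns4 was not (0.60, adjusted p = 0.071). No other member's call in the matrix comparisons changed. Collagen I depth limits the precision, and no test tells matrix from sequencing run.

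Over all genes, leaving out 1 plate gave 1827 to 4569 calls over all wells (3765 with all plates), 818 to 2266 in basal wells (1967), 1337 to 3690 in non-basal wells (3106), 2734 to 4012 between classes in BME (3835), 275 to 965 in Collagen I (833) and 200 to 492 for the difference (466). In the same order, leaving out mitotic wells gave 2452, 1196, 1977, 1632, 472 and 289 calls, and thinned wells 1777, 707, 1118, 681, 376 and 145. Stricter class limits gave 1874 in non-basal wells and 1984 between classes in BME. DESeq2 gave 2320 there and 256 for the difference, and without the plate as a block there were 2298, 422 and 110 in the last 3 comparisons. The share of wells unthinned had 0 members higher in both Collagen I plates in basal and 0 in non-basal wells, in place of 8 each. Fewer wells or counts enter when wells or plates are left out or thinned, and the cause of the other changes was not tested.

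All changes of sign but 1 were in values not called. Tagln2 in non-basal wells was 0.21 without mitotic wells. Between classes in BME, Actn4 was 0.11 with stricter limits and -0.13 to 0.021 when 1 plate was left out, and Pak1, called at 0.38, was -0.093 in thinned wells. Tns4 between classes in Collagen I was -0.15 in thinned wells. The rest were differences of the class effect. Without mitotic wells these were -0.10 for Vcl, -0.093 for Zyx, 0.17 for Tln1 and 0.12 for Flna, and in thinned wells -0.17 for Vcl, -0.38 for Zyx, 0.42 for Tln1, 0.45 for Flna, 0.24 for Pxn and -0.26 for Fhl2. Without wells with fibroblast counts, Vcl was -0.0006 and Fhl2 -0.073. With RLE, library size only, DESeq2, more than 2000 counts per well and without the deepest wells, Tln1 was 0.016, 0.0068, 0.011, 0.039 and 0.15, and Flna 0.051, 0.042, 0.034, 0.036 and 0.15. Flna was also 0.026 without the filter on low counts and 0.020 with stricter limits. Leaving out 1 plate, Vcl ranged from -0.16 to 0.25, Tln1 from -0.18 to 0.19, Flna from -0.28 to 0.22 and Fhl2 from -0.040 to 0.16.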
